A study of Homo sapiens with 10 samples.

Results

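The genes described here are a set of established targets of the transcription factor p53, called p53 response genes below. They were taken from a list of 32 symbols by exact match to the gene names of the deposited table, which found 31 of the 32 among 13808 genes (14785 rows, including rows that are not genes). CD82, the remaining symbol, was not analysed here. Values came from RNA-seq of H1, a long-used line of human embryonic stem cells, in 10 libraries that form 5 groups of 2. All 5 groups received virus carrying a short hairpin RNA (shRNA) and puromycin selection. The control group shLUC carried an shRNA against luciferase, a gene that human cells lack. The other groups carried an shRNA against SMARCA4 (an ATPase of the BAF chromatin remodeller), MAFK (a small MAF transcription factor), E2F6 (a repressive E2F factor) or KDM1A (a histone H3 demethylase). Nothing in the labels says whether replicates came from separate infections, so p-values measure only the spread between these libraries.

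In most cells p53 is kept low by MDM2, the ubiquitin ligase that targets it for degradation, and by MDM4. DNA damage and other stresses stabilise it, and it then activates genes of cell cycle arrest, apoptosis, DNA repair and metabolism, together with MDM2 itself and other inhibitors that close a negative feedback loop. Human embryonic stem cells hold p53 protein, and its activation in them is known to favour apoptosis and differentiation over prolonged arrest.

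p53 binds a pair of decamers with a C and a G in the core of each, known as the p53 consensus. Sequences of RefSeq promoters (GRCh38.p14, the 250 bases before each annotated start) were available for 23 of the 31 genes and were searched for 2 adjacent decamers of 10 bases, with each core C and G required and up to 3 mismatches at the other positions. The decamer equals its own reverse complement, so 1 search covers both strands. 5 of the 23 genes held a match, against 130 of 10488 genes of the table with a promoter sequence (1.24%) and 321 of 35116 promoter windows (0.914%). The 5 sites are shown because they are the promoter stretches of this gene set that carry the p53 motif. Each line gives 30 bases on the strand of the gene, 5′ to 3′, with the 20 matched bases in capitals.
AEN, chr15:88621301-88621330, plus strand, 2 mismatches: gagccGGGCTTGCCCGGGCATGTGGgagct
FAS, chr10:88991304-88991333, plus strand, 2 mismatches: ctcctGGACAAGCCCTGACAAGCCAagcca
FDXR, chr17:74872991-74873020, minus strand, 3 mismatches: ggcccGGGCAGGAGCGGGCTTGCCCtgcgg
MDM2, chr12:68808918-68808947, plus strand, 2 mismatches: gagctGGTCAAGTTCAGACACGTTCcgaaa
SESN1, chr6:109009013-109009042, minus strand, 3 mismatches: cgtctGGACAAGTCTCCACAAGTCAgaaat
In the GENCODE annotation the sites of AEN, FAS and FDXR lie in exons of the gene and those of MDM2 and SESN1 in introns. A match describes letters and not binding, and p53 sites outside these windows were not searched.

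The deposited values are whole-number normalized tag counts, called values below. All libraries had a median of 594 and totals between 22836548 and 22855295, so read depth is unknown. The targeted gene was lower than shLUC in its own knockdown for SMARCA4 (8086 and 8374 in shLUC, 8220 and 7576 in shMAFK, 1100 and 985 in shSMARCA4, 9296 and 7917 in shKDM1A and 8220 and 7917 in shE2F6), where it passed the test, with a log2 change of -2.98 (SE 0.14, adjusted p = 8.56e-05). MAFK was 212 and 288 in shLUC and 82 and 216 in shMAFK, a difference of -0.89 (SE 0.39, adjusted p = 0.572). E2F6 was 491 and 553 in shLUC and 336 and 304 in shE2F6, a difference of -0.70 (SE 0.19, adjusted p = 0.774). KDM1A was 6344 and 5925 in shLUC and 3290 and 1879 in shKDM1A, a difference of -1.30 (SE 0.24, adjusted p = 0.132). Of the 4 targets only SMARCA4 passed with all 10 libraries in the fit, while KDM1A in shKDM1A passed without either shKDM1A library (adjusted p = 0.0127 and 0.00617). A fit that leaves out a library leaves 1 in its group, which is then assumed to vary like the other groups. The MAFK libraries of shMAFK overlapped the range of the controls. All 10 pluripotency markers were detected, and their values summed to between 131473 and 256499 per library. Tests are from limma on log2(value + 1). Adjusted p-values (Benjamini-Hochberg) cover the 14785 rows of the table, and the threshold is 0.05.

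The p53 response genes lay mostly below the control in shSMARCA4 and mostly above it in shMAFK. Of the 31 genes, 28 had a lower mean than shLUC in shSMARCA4, where 49% of all rows were lower, and 22 had a higher mean in shMAFK, where 49% of all rows were higher. Their median log2 change was -0.32 in shSMARCA4 and 0.30 in shMAFK, against 0.01 and 0.00 over all rows. These medians share the shLUC libraries. A comparison of shMAFK with shSMARCA4 that uses no control library gave a median of 0.56, ranging from -0.13 to 2.83. In it 28 of 31 genes were higher in shMAFK (49.4% of all rows). GDF15 is among the 22 and the 28 genes higher in shMAFK, and it is in the table only through its shMAFK values. In shKDM1A the median was -0.27 and 22 of 31 genes were lower (52.1% of all rows). In shE2F6 the median was -0.09, with 12 genes higher (49.2% of all rows) and 19 lower (50.7%). Fewer cells of a type and less RNA per cell cannot be told apart in these bulk libraries.

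**Figure D1:**
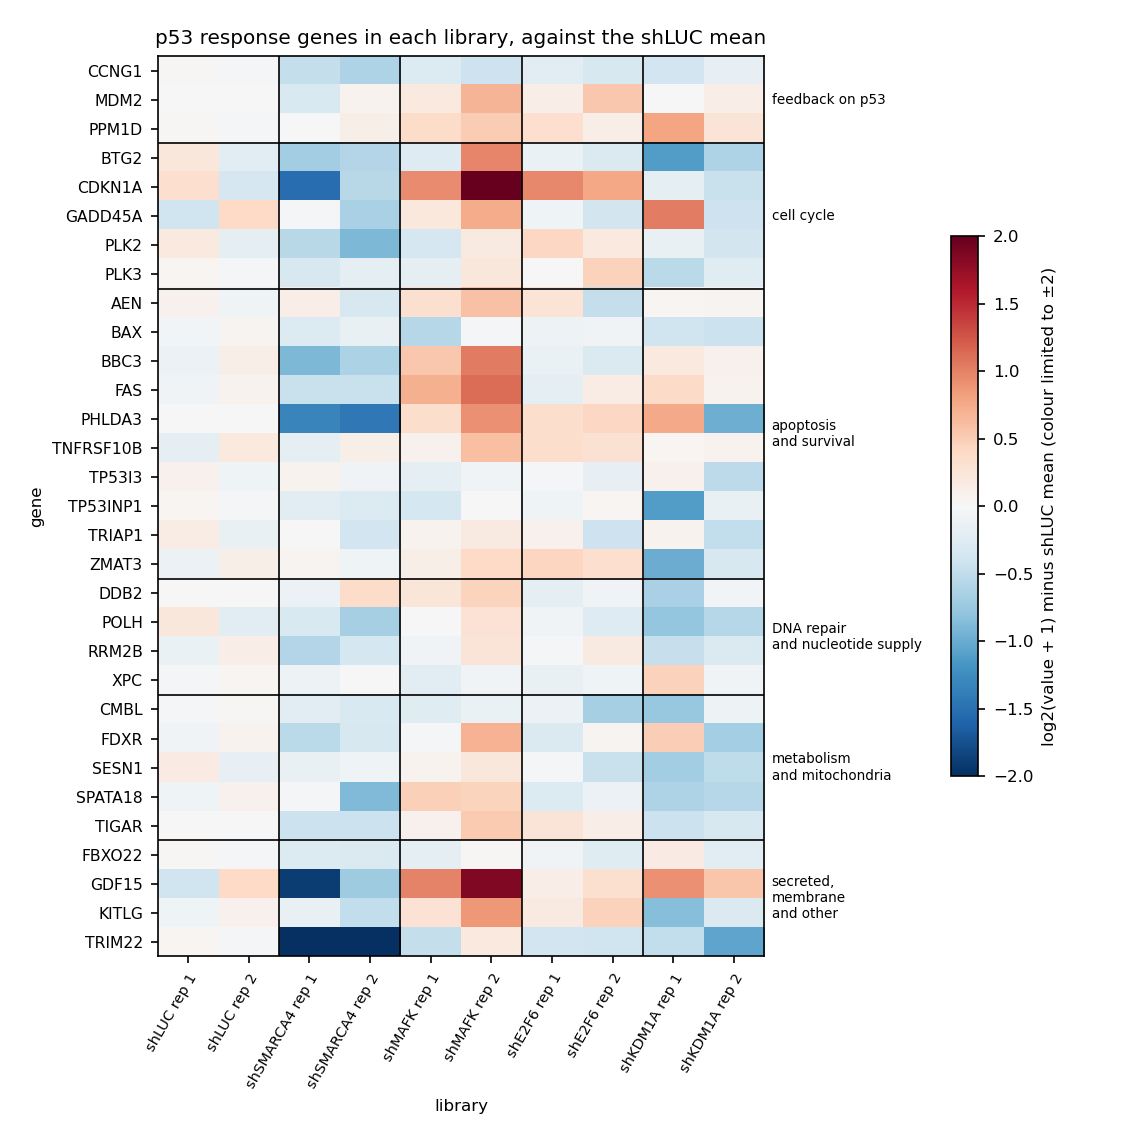
Log2(value + 1) of each of the 31 p53 response genes (vertical axis, grouped by role) in each of the 10 libraries (horizontal axis), minus the mean of the 2 shLUC libraries, as colour limited to ±2. shMAFK replicate 2 is the reddest column, the shSMARCA4 columns are mostly blue, and TRIM22 is far below the control in both shSMARCA4 libraries.

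Library by library, shSMARCA4 was even and shMAFK was not. The median gene lay at -0.27 and -0.36 relative to the shLUC mean in the 2 shSMARCA4 libraries, with 5 of 31 genes above it in each. In shMAFK it lay at 0.07 in replicate 1, with 18 genes above, and at 0.44 in replicate 2, with 26 above. shMAFK replicate 2 was the highest of the 10 libraries for 18 of the 31 genes, GDF15 among them (58.1%, against 11.2% of all rows), and the lowest for none. It was also the shMAFK library with more MAFK transcript, and whether this bears on the values was not tested. Without shMAFK replicate 2 the median change in shMAFK was 0.07 instead of 0.30. The shKDM1A medians were -0.20 and -0.29, and shKDM1A replicate 1 was the lowest library for 10 genes (32.3%, against 27.7% of all rows). The SD between replicates on the log2 scale was 0.39 over the p53 response genes and 0.26 over all rows in shMAFK, while in shSMARCA4 it was 0.28 and 0.34.

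Against shLUC, 1 of the 31 genes passed the test in shSMARCA4 and fell (TRIM22), against 2.51% of all rows lower and 4.18% in either direction. 9 genes were lower at an unadjusted p under 0.05 (8.53% of all rows) and 0 were higher (7.78%). For 19 genes both shSMARCA4 libraries lay below both shLUC libraries (25.4% of all rows), and for 0 genes above them (25.6%). The number past the threshold changed with the shKDM1A libraries in the fit. Without shKDM1A replicate 1, without replicate 2, or without both it was 4 (12.9%): BBC3, CCNG1, PHLDA3 and TRIM22, while 7.79% to 7.86% of all rows then passed.

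In shMAFK 0 of the 31 genes passed against shLUC, as did 0.0135% of all rows. Groups did not overlap for 13 higher genes, GDF15 among them (23.8% of all rows), and for 3 lower genes (25.3%). 5 genes were higher at an unadjusted p under 0.05 (BBC3, CDKN1A, FAS, GDF15 and PPM1D; 4.27% of all rows) and 1 was lower (CCNG1; 4.49%). GDF15 is in the table only through its shMAFK values, and without it 4 of 30 genes were higher. With a separate variance for each group, BBC3 and FAS passed, as did 3.29% of all rows. In shKDM1A 0 passed (0.0271% of all rows), with 1 gene higher (PPM1D; 5.85%) and 6 lower (BTG2, POLH, SESN1, TP53INP1, TRIM22 and ZMAT3; 5.61%) at an unadjusted p under 0.05. Both shKDM1A libraries lay below both controls for 15 genes (20.9% of all rows) and above them for 3 (17.9%). Without shKDM1A replicate 2, 6 genes passed in that comparison (19.4%), but so did 3235 of all 14785 rows (21.9%). In shE2F6 0 passed (0 of all rows, with 5.09% at an unadjusted p under 0.05), 0 genes reached an unadjusted p under 0.05, and groups did not overlap for 8 higher (20.3%) and 9 lower genes (20.4%).

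Between shMAFK and shSMARCA4, 7 of the 31 genes passed and all 7 were higher in shMAFK (22.6%, against 4.27% of all rows higher, 3.5% lower and 7.76% in either direction). They were CDKN1A, BBC3, FAS, PHLDA3, TIGAR, GDF15 and TRIM22. Without GDF15, which its shMAFK values brought into the table, 6 of 30 passed (20%). 14 genes were higher at an unadjusted p under 0.05 (10.9% of all rows) and 0 lower (10.4%). Without GDF15, 13 of 30 were higher at that level (43.3%). Both shMAFK libraries lay above both shSMARCA4 libraries for 23 genes, GDF15 among them (27.7% of all rows), and below them for 0 (28%). Without shMAFK replicate 2 only BBC3 and TRIM22 passed (1.97% of all rows), without shSMARCA4 replicate 1 the count was 3 (3.2%), and without shSMARCA4 replicate 2 it was 4 (2.99%). In the F-test for any difference among the 4 knockdowns, 4 of the 31 passed (BBC3, CDKN1A, TIGAR and TRIM22), against 6.64% of all rows. That count was 15 without shKDM1A replicate 2, where 35.9% of all rows passed, and 1 without shSMARCA4 replicate 1, where 1.88% did. It also fell without either library of shE2F6 or shLUC, without shMAFK replicate 2 and without shSMARCA4 replicate 2. The share of all rows that passed fell in each of these fits as well.

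**Figure D2:**
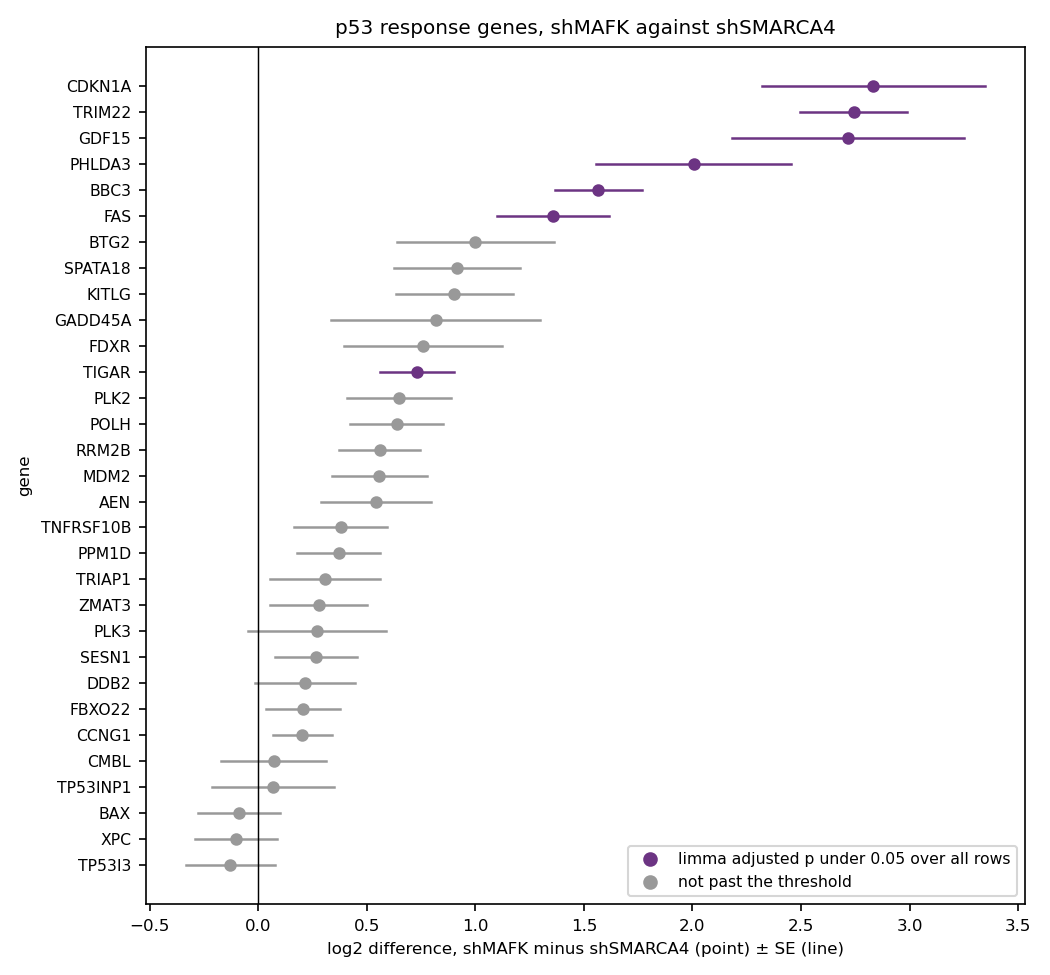
Log2 difference between shMAFK and shSMARCA4 for each of the 31 p53 response genes, with bars for 1 SE on each side from limma. 28 genes lie above 0, and the 7 past the threshold range from 0.73 (TIGAR) to 2.83 (CDKN1A).

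The first role is feedback on p53. MDM2 (ENSG00000135679, chromosome 12, 68808176 to 68850686, plus strand), whose promoter site is printed above, had values of 1446 and 1461 in shLUC, 1662 and 2331 in shMAFK, 1173 and 1522 in shSMARCA4, 1468 and 1586 in shKDM1A and 1596 and 2104 in shE2F6. Both shMAFK libraries lay above both controls, while the shSMARCA4 libraries lay on either side of them. The log2 change was -0.12 (SE 0.22, adjusted p = 0.877) in shSMARCA4 and 0.44 (SE 0.22, adjusted p = 0.645) in shMAFK, and neither passed. The difference between those knockdowns was 0.56 (SE 0.22, adjusted p = 0.176). Exons of MDM2 share 133 bases with CPM on the opposite strand, and because strand handling in the counting is not stated, reads there cannot be told apart. The same holds for 7 of the 31 genes in all. PPM1D, a phosphatase that reverses activating phosphorylation of p53, had 377 and 362 in shLUC, 476 and 524 in shMAFK, 372 and 401 in shSMARCA4, 638 and 440 in shKDM1A and 468 and 406 in shE2F6. All knockdown libraries but shSMARCA4 replicate 1 were above the higher control, and the change of 0.52 (SE 0.19, adjusted p = 0.4) in shKDM1A and 0.43 (SE 0.19, adjusted p = 0.57) in shMAFK did not pass. CCNG1, a cyclin that recruits a phosphatase to MDM2, had 11997 and 11635 in shLUC, 9772 and 8852 in shMAFK, 8496 and 7680 in shSMARCA4, 9056 and 10534 in shKDM1A and 10071 and 9502 in shE2F6. All 8 knockdown libraries lay below both controls, with the lowest values in shSMARCA4, where the change was -0.55 (SE 0.14, adjusted p = 0.0635). Without either shKDM1A library that change passed. In shMAFK the change of CCNG1 was -0.35 (SE 0.14, adjusted p = 0.514). Per kb of merged exons, CCNG1 had the highest mean level of the 31 genes, at 3152 per kb, and PLK3 the lowest, at 19.4 per kb.

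The cell cycle genes were lower than shLUC in shSMARCA4 in 5 of 5 cases (49% of all rows), with a median log2 change of -0.64. In shMAFK 4 of 5 were higher (49% of all rows). CDKN1A (ENSG00000124762, chromosome 6, 36676460 to 36687339, plus strand) encodes p21, the inhibitor of cyclin-dependent kinases that carries the arrest response. Its values were 235 and 148 in shLUC, 360 and 1170 in shMAFK, 64 and 127 in shSMARCA4, 162 and 136 in shKDM1A and 364 and 320 in shE2F6. The shSMARCA4 libraries were below both controls, the shMAFK and shE2F6 libraries were above both, and the shMAFK replicates differed by the widest margin of any group. Changes against shLUC of -1.04 (SE 0.51, adjusted p = 0.368) in shSMARCA4, 1.79 (SE 0.51, adjusted p = 0.301) in shMAFK and 0.87 (SE 0.51, adjusted p = 1) in shE2F6 did not pass. The difference between shMAFK and shSMARCA4 passed, at 2.83 (SE 0.51, adjusted p = 0.0119), a ratio of means of 8.01. It was 1.99 with an adjusted p of 0.0694 without shMAFK replicate 2, and did not pass without shSMARCA4 replicate 1 (adjusted p = 0.0833).

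BTG2, an antiproliferative cofactor of mRNA deadenylation, had values of 366 and 269 in shLUC, 262 and 621 in shMAFK, 194 and 209 in shSMARCA4, 144 and 204 in shKDM1A and 286 and 257 in shE2F6. shMAFK replicate 2 was the highest library and shKDM1A replicate 1 the lowest, and the change in shKDM1A was -0.87 (SE 0.36, adjusted p = 0.414). Between shMAFK and shSMARCA4 the difference was 1.00 (SE 0.36, adjusted p = 0.142), which passed without shMAFK replicate 1 (adjusted p = 0.0256). PLK2, a polo-like kinase induced by p53, had 286 and 218 in shLUC, 198 and 284 in shMAFK, 170 and 134 in shSMARCA4, 226 and 193 in shKDM1A and 334 and 285 in shE2F6. Both shSMARCA4 libraries were below all others, and the change there was -0.72 (SE 0.24, adjusted p = 0.155). GADD45A, which takes part in arrest and repair, ranged from 68 to 220 over the 10 libraries, and PLK3, another polo-like kinase, from 48 to 97. Neither passed in any comparison.

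In the apoptosis and survival group, 3 of 10 genes were higher in shMAFK than in shSMARCA4 past the threshold (4.27% of all rows). In shSMARCA4, 9 of 10 had a lower mean than shLUC (49% of all rows). BBC3 (ENSG00000105327, chromosome 19, 47220822 to 47232766, minus strand) encodes PUMA, a BH3-only protein that drives cell death. Its values were 440 and 516 in shLUC, 695 and 985 in shMAFK, 254 and 306 in shSMARCA4, 548 and 506 in shKDM1A and 436 and 390 in shE2F6. The shSMARCA4 libraries were below all others and the shMAFK libraries above all others. The change was -0.77 (SE 0.20, adjusted p = 0.0723) in shSMARCA4 and 0.79 (SE 0.20, adjusted p = 0.227) in shMAFK, and the difference of 1.57 (SE 0.20, adjusted p = 0.00241) between them was 3.00-fold as a ratio of means and passed in all 10 fits that left out 1 library. FAS (ENSG00000026103, chromosome 10, 88990582 to 89015785, plus strand), a death receptor, had 86 and 94 in shLUC, 148 and 197 in shMAFK, 66 and 66 in shSMARCA4, 117 and 94 in shKDM1A and 78 and 100 in shE2F6. The shMAFK libraries were above all others and the shSMARCA4 libraries below. The difference was 1.36 (SE 0.26, adjusted p = 0.0149), lost without shMAFK replicate 2 (adjusted p = 0.148) and without shSMARCA4 replicate 1 (0.0713) or 2 (0.0775). Exons of FAS share 380 bases with ACTA2 on the opposite strand.

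PHLDA3 (ENSG00000174307, chromosome 1, 201464383 to 201469237, minus strand), a pleckstrin-homology protein that restrains AKT signalling, had values of 552 and 541 in shLUC, 694 and 1030 in shMAFK, 218 and 202 in shSMARCA4, 921 and 276 in shKDM1A and 700 and 728 in shE2F6. The 2 shSMARCA4 libraries were the lowest of the 10 and the 2 shKDM1A libraries lay far apart. The change in shSMARCA4 was -1.38 (SE 0.45, adjusted p = 0.15), and it passed without shKDM1A replicate 1 (adjusted p = 0.00396) and without replicate 2 (0.00377). The difference between shMAFK and shSMARCA4 was 2.01 (SE 0.45, adjusted p = 0.0279), a ratio of 4.11, and passed in 4 of 10 fits that left out 1 library. It was lost without either library of shLUC, shMAFK or shSMARCA4, with adjusted p between 0.0523 and 0.198. In shKDM1A the change was -0.12, and 0.75 without replicate 2.

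TP53INP1, a stress protein that promotes p53 phosphorylation and autophagy, had values of 550 and 525 in shLUC, 419 and 538 in shMAFK, 460 and 446 in shSMARCA4, 246 and 486 in shKDM1A and 505 and 553 in shE2F6, and ZMAT3, an RNA-binding splicing regulator, had 472 and 550 in shLUC, 554 and 672 in shMAFK, 527 and 480 in shSMARCA4, 256 and 410 in shKDM1A and 684 and 646 in shE2F6. Both were lowest in shKDM1A replicate 1, where the other shKDM1A library was nearer the controls. The changes in shKDM1A were -0.63 (SE 0.28, adjusted p = 0.433) and -0.65 (SE 0.22, adjusted p = 0.372). BAX (a pore-forming BCL2 family protein), TNFRSF10B (a TRAIL receptor), AEN (a nuclease), TP53I3 (an oxidoreductase) and TRIAP1 (an inhibitor of apoptosome formation) passed in no comparison. The AEN values ran from 2122 to 4426 and those of TNFRSF10B from 1796 to 3126, both highest in shMAFK replicate 2.

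**Figure D3:**
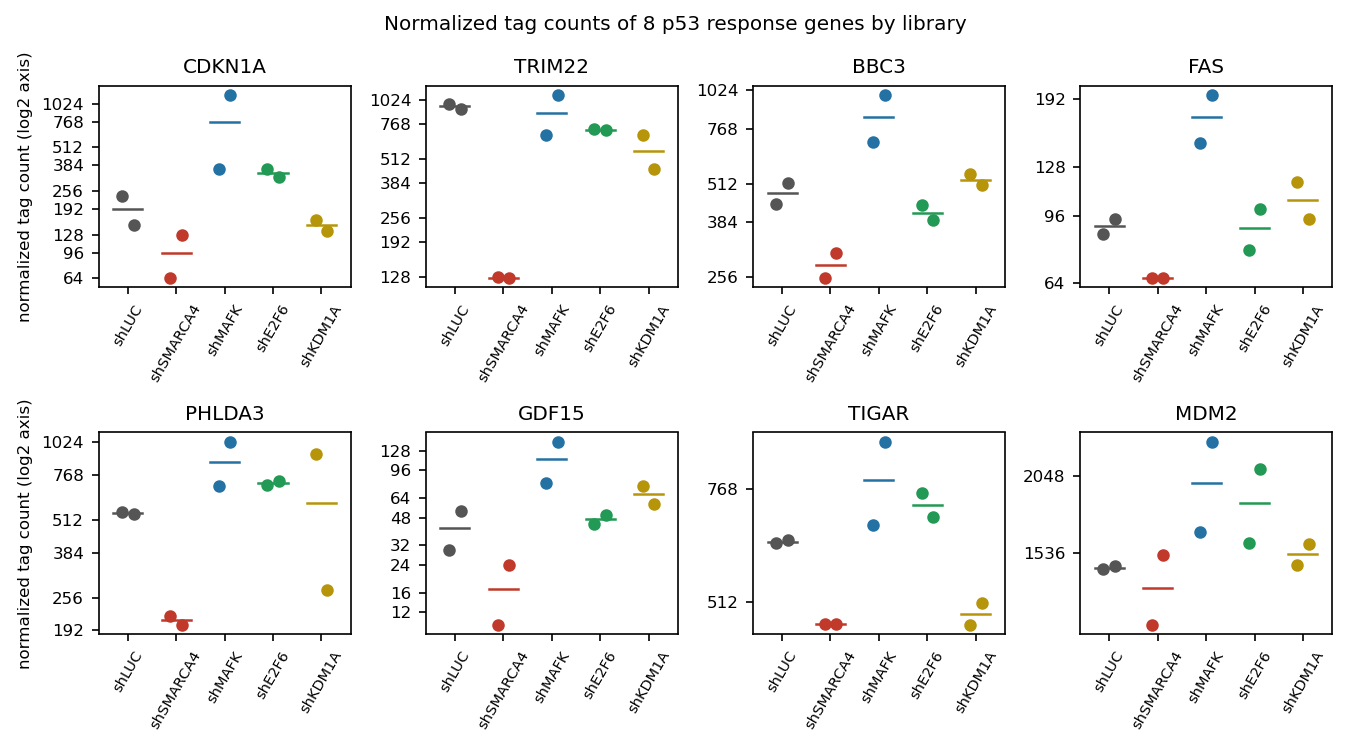
Values of 8 p53 response genes (vertical axis, log2 scale) in the 5 groups (horizontal axis), with 1 point per library and a line at the mean of each group. For CDKN1A, shMAFK replicate 2 stands at 1170 while replicate 1 stands at 360, and the TRIM22 points of shSMARCA4 lie at 128 and 126 while no other library is below 452.

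Of the genes of DNA repair and nucleotide supply, 0 passed in the main fit of all 10 libraries, which had no replicate block. With that block RRM2B passed between shMAFK and shSMARCA4, as given below. RRM2B, the p53-inducible small subunit of ribonucleotide reductase, had values of 2112 and 2555 in shLUC, 2208 and 2768 in shMAFK, 1550 and 1815 in shSMARCA4, 1686 and 1908 in shKDM1A and 2265 and 2628 in shE2F6. The shSMARCA4 libraries, at 1550 and 1815, lay below both controls, as did those of shKDM1A. The changes were -0.47 (SE 0.19, adjusted p = 0.244) and -0.37 (SE 0.19, adjusted p = 0.459), and the difference between shMAFK and shSMARCA4 was 0.56 (SE 0.19, adjusted p = 0.111). POLH, the translesion polymerase eta, had 411 and 297 in shLUC, 352 and 428 in shMAFK, 282 and 220 in shSMARCA4, 204 and 235 in shKDM1A and 334 and 292 in shE2F6. Its shKDM1A and shSMARCA4 libraries lay below both controls, with changes of -0.67 (SE 0.22, adjusted p = 0.345) and -0.49 (SE 0.22, adjusted p = 0.306). Exons of POLH share 4 bases with GTPBP2 on the opposite strand. The DNA-lesion recognition genes DDB2 and XPC ranged from 598 to 1282 and from 1076 to 1728. In shSMARCA4 DDB2 had the highest change of the 12 genes given by range only (0.13), and the lowest was FDXR at -0.43. Over those 12 genes the lowest adjusted p was 0.260 in the comparison of shMAFK with shSMARCA4 and 0.439 or higher in each comparison with shLUC.

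The genes of metabolism and mitochondria were lower than shLUC in shSMARCA4 and in shKDM1A in 5 of 5 cases, with medians of -0.43 and -0.43. Of all rows, 49% were lower in shSMARCA4 and 52.1% in shKDM1A. TIGAR (ENSG00000078237, chromosome 12, 4307763 to 4354593, plus strand), a phosphatase that slows glycolysis, had values of 632 and 640 in shLUC, 674 and 912 in shMAFK, 472 and 472 in shSMARCA4, 471 and 510 in shKDM1A and 758 and 694 in shE2F6. The shSMARCA4 and shKDM1A libraries were below the controls and the shMAFK and shE2F6 libraries above them. The difference between shMAFK and shSMARCA4 was 0.73 (SE 0.17, adjusted p = 0.0322), a ratio of 1.68, and passed in 3 of 10 fits that left out 1 library. Losing shMAFK replicate 2 raised its adjusted p to 0.252, and the other losses came without either library of shE2F6, shLUC or shSMARCA4, between 0.0546 and 0.152. With only the 2 groups in the fit it was 0.065. SESN1, a sestrin that restrains mTORC1 and whose promoter site is printed above, had 966 and 775 in shLUC, 909 and 1012 in shMAFK, 784 and 812 in shSMARCA4, 533 and 606 in shKDM1A and 843 and 634 in shE2F6. Both shKDM1A libraries were the lowest of all, with a change of -0.61 (SE 0.19, adjusted p = 0.341).

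SPATA18, a mitochondrial quality-control protein, had values of 112 and 126 in shLUC, 165 and 162 in shMAFK, 116 and 64 in shSMARCA4, 77 and 80 in shKDM1A and 98 and 109 in shE2F6. The shMAFK libraries were the highest of the 10, and the difference from shSMARCA4 was 0.92 (SE 0.29, adjusted p = 0.094), which passed without shSMARCA4 replicate 1 (adjusted p = 0.042). FDXR, a mitochondrial ferredoxin reductase with a promoter site above, ranged from 624 to 1620, and CMBL, a hydrolase, from 462 to 796.

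The secreted, membrane and other group held the only gene to pass against shLUC. TRIM22 (ENSG00000132274, chromosome 11, 5689689 to 5737089, plus strand), a ubiquitin ligase of the TRIM family that interferon also induces, had values of 975 and 916 in shLUC, 678 and 1080 in shMAFK, 128 and 126 in shSMARCA4, 674 and 452 in shKDM1A and 724 and 718 in shE2F6. Both shSMARCA4 libraries lay far below all 8 others. It fell in shSMARCA4 with a log2 change of -2.89 (SE 0.25, adjusted p = 0.000782), to 13.4% of the shLUC mean, and passed in all 10 fits that left out 1 library. In shKDM1A the change was -0.77 (SE 0.25, adjusted p = 0.345), and both shKDM1A libraries were below the controls. The difference between shMAFK and shSMARCA4 was 2.74 (SE 0.25, adjusted p = 0.000606), a ratio of 6.92.

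GDF15 (ENSG00000130513, chromosome 19, 18374731 to 18389176, plus strand), a secreted stress cytokine of the TGF-beta superfamily, had values of 30 and 53 in shLUC, 80 and 146 in shMAFK, 10 and 24 in shSMARCA4, 76 and 59 in shKDM1A and 44 and 50 in shE2F6. The shMAFK libraries were the highest and the shSMARCA4 libraries the lowest. The difference of 2.72 (SE 0.53, adjusted p = 0.0168) was a ratio of 6.65 and passed in 7 of 10 fits that left out 1 library, but not without either shMAFK library (adjusted p = 0.0541 and 0.166) or shSMARCA4 replicate 1 (0.0847). Every row of the table reaches 80 in at least 2 libraries, and GDF15 reaches it only in shMAFK, so its presence in the table depended on its shMAFK values. KITLG, the ligand of the KIT receptor, had 175 and 197 in shLUC, 228 and 340 in shMAFK, 168 and 131 in shSMARCA4, 102 and 152 in shKDM1A and 210 and 256 in shE2F6, and the difference between shMAFK and shSMARCA4 was 0.90 (SE 0.27, adjusted p = 0.0809), with shMAFK replicate 2 the highest library. It passed without either shKDM1A library. FBXO22, an F-box protein of a ubiquitin ligase, ranged from 1428 to 1958.

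Among the regulators of p53, MDM4 had 1920 and 1723 in shLUC, 2005 and 1859 in shMAFK, 1802 and 2666 in shSMARCA4, 1476 and 1875 in shKDM1A and 1786 and 1842 in shE2F6, and the changes ran from -0.13 in shKDM1A to 0.27 in shSMARCA4 against shLUC, none past the threshold. Of 32 p53 regulators in the table (35 listed), only PPP1R13L, which encodes the inhibitor iASPP, rose in shSMARCA4 by a log2 change of 0.99 (SE 0.23, adjusted p = 0.0437), a call lost without either library of shLUC or shMAFK or without shSMARCA4 replicate 2. That is 3.12% of the list, against 1.67% of all rows higher in that comparison. Of the 32 genes 0 passed in shMAFK, shE2F6 or shKDM1A against shLUC. SIRT1, a deacetylase of p53, was higher in shMAFK than in shSMARCA4 by 1.24 (SE 0.21, adjusted p = 0.00906), which was lost without shMAFK replicate 2 or shSMARCA4 replicate 1. The median of the 32 was 0.14 in shSMARCA4 and 0.10 in shMAFK.

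Among 53 further p53 targets in the table (63 listed), 2 fell in shSMARCA4 (3.77%, against 2.51% of all rows). DRAM1, a lysosomal regulator of autophagy, was 1 of them, with a change of -0.81 (SE 0.19, adjusted p = 0.0468). Its call was lost without any 1 library of shLUC, shE2F6, shMAFK or shSMARCA4, and with genes only, a pseudocount of 32, rows with a mean of at least 100 or only the groups compared (adjusted p from 0.0502 to 0.0707). IGFBP3 passed in shSMARCA4 with only the groups compared (adjusted p = 0.0185). The other comparisons with shLUC had 0 calls. The median change was -0.16 in shSMARCA4 and 0.01 in shMAFK. Between shMAFK and shSMARCA4, 6 of the 53 were higher past the threshold (11.3%, against 4.27% of all rows) and 0 lower, among them SESN2, TNFRSF10D, DRAM1, IGFBP3 and SYTL1. IGFBP3, a binding protein for insulin-like growth factors, had values of 141 and 162 in shLUC, 274 and 216 in shMAFK, 48 and 28 in shSMARCA4, 294 and 103 in shKDM1A and 134 and 62 in shE2F6 and a difference of 2.70 (SE 0.52, adjusted p = 0.0154). SYTL1, which acts in vesicle trafficking, had 90 and 154 in shLUC, 244 and 380 in shMAFK, 47 and 79 in shSMARCA4, 158 and 146 in shKDM1A and 66 and 81 in shE2F6 and a difference of 2.30 (SE 0.35, adjusted p = 0.00597). Without shMAFK replicate 2 the SYTL1 call was lost, as was that of IGFBP3 without either shMAFK library or shSMARCA4 replicate 2. Without shMAFK replicate 1 most of the 6 calls were lost, and fewer of all rows passed as well.

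p53 lowers many genes of mitosis through p21 and the DREAM complex, and 40 such genes were in the table. MYBL2 rose in shSMARCA4 by a log2 change of 0.98 (SE 0.22, adjusted p = 0.0404), the only gene of the 40 to pass against shLUC in any knockdown, and did not pass without any 1 library of shLUC, shMAFK or shSMARCA4. Their median was 0.04 in shSMARCA4 and -0.11 in shMAFK, where 31 of 40 were lower (50.8% of all rows). Between shMAFK and shSMARCA4 the median was -0.14 with 32 of 40 lower (50.5% of all rows) and 0 past the threshold (7.76% of all rows). MKI67, MYBL2 and NEK2 passed without either shKDM1A library and, with CENPE, with a separate variance for each group, and MYBL2 also passed without either shE2F6 library. In all 6 had an unadjusted p under 0.05 and were lower in shMAFK than in shSMARCA4, as were 10.4% of all rows. Of all rows, 14.5% passed in that comparison without both shKDM1A libraries and 14% with a separate variance for each group.

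**Figure D4:**
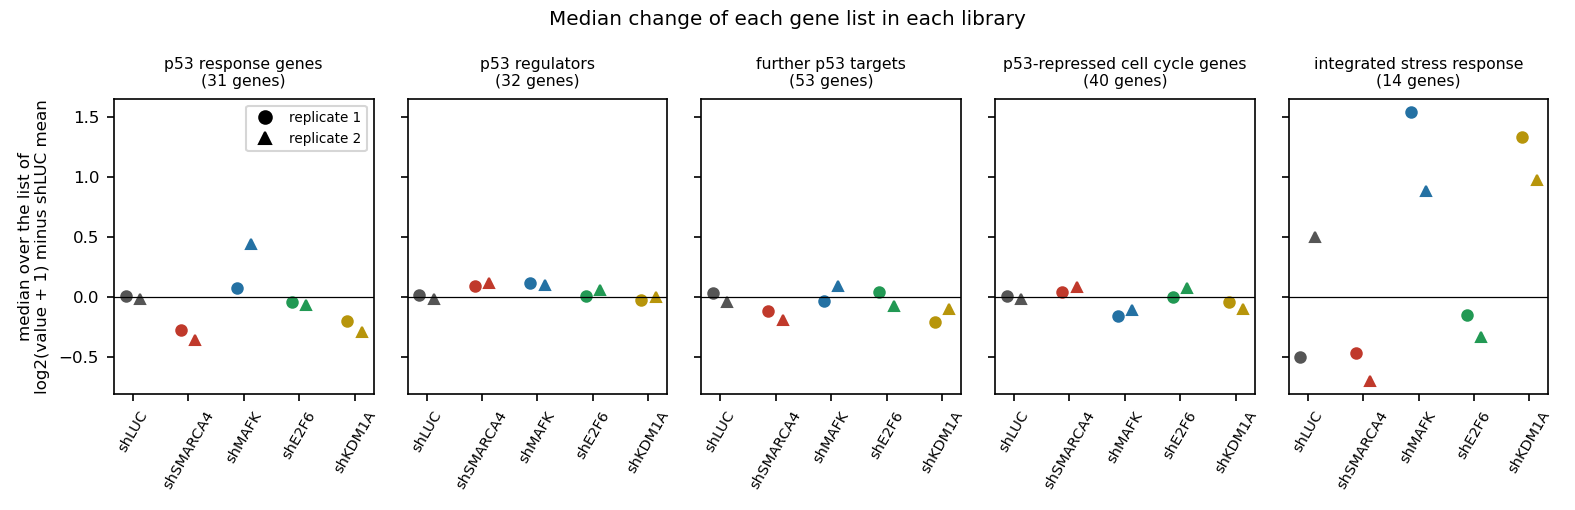
Median over the genes of each list of log2(value + 1) minus the shLUC mean (vertical axis) in each of the 10 libraries (horizontal axis). The p53 response genes are highest in shMAFK replicate 2 and lowest in shSMARCA4 replicate 2, and the integrated stress response genes are highest in shMAFK and shKDM1A with the 2 shLUC libraries at -0.50 and 0.50.

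Genes of the integrated stress response, which ATF4 controls and which shares SESN2 with the p53 targets, also differed between these libraries. All 14 were higher than shLUC in shMAFK (49% of all rows) and in shKDM1A (47.8%), with medians of 1.24 and 1.02. In shSMARCA4 13 of 14 were lower (49% of all rows), with a median of -0.51. ATF5 alone rose in shMAFK by a log2 change of 3.99 (SE 0.33, adjusted p = 0.00928), a call lost without shLUC replicate 1 or either shMAFK library. Between shMAFK and shSMARCA4, 8 of the 14 passed and all were higher in shMAFK (57.1%, against 4.27% of all rows). They were TRIB3 at 3.54 (SE 0.41, adjusted p = 0.00164), ASNS at 2.52 (SE 0.31, adjusted p = 0.00199), ATF5, CHAC1, SESN2, PSAT1, SLC7A11 and CEBPB. Without shMAFK replicate 1 fewer of these genes passed, and fewer of all rows passed as well. The order of libraries differed from that of the p53 response genes. The median of the 14 was 1.54 in shMAFK replicate 1 and 0.89 in replicate 2, 1.34 and 0.98 in shKDM1A, where 22 of 31 p53 response genes had a lower mean than shLUC and 0 passed, and -0.50 and 0.50 in the shLUC libraries. Its part in the p53 response gene values was not tested.

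Of the 10 pluripotency markers, 0 passed against shLUC in shSMARCA4. At an unadjusted p under 0.05, 3 were lower there (LIN28A, SOX2 and TDGF1; 8.53% of all rows) and 1 higher (NANOG; 7.78%). SOX2 had values of 6408 and 6928 in shLUC, 7576 and 7680 in shMAFK, 4426 and 4748 in shSMARCA4, 6490 and 6343 in shKDM1A and 5706 and 5367 in shE2F6, and both shSMARCA4 libraries lay below all others. It was higher in shMAFK than in shSMARCA4 by 0.73 (SE 0.13, adjusted p = 0.0109), lost without either shMAFK library or shSMARCA4 replicate 1. TDGF1 was higher by 0.69 (SE 0.17, adjusted p = 0.039), lost without any 1 library of shLUC, shE2F6, shMAFK or shSMARCA4. Their part in the values of the p53 response genes was not tested.

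Markers of other cell types also differed in shSMARCA4. 2 of 7 mesendoderm markers were in the table, and their summed value was 4239 and 856 in shSMARCA4 against 10 to 58 in the other libraries, with MIXL1 past the threshold. 2 of 5 fibroblast-like markers, COL1A1 and THY1, summed to 3105 and 3943 in shSMARCA4 and to between 10716 and 14451 elsewhere, and both fell. KRT7, the 1 of 5 trophoblast markers in the table, fell in shSMARCA4, and ZIC1, 1 of 2 neuroectoderm markers in the table, rose. The other, NES, had a change below 0 and did not pass. ZIC1 and NES summed to 6605 and 4172 in shSMARCA4 and to between 4068 and 10836 elsewhere. Each of these calls was lost without some single library: all 5 without shLUC replicate 2, all but KRT7 without shLUC replicate 1, MIXL1, COL1A1 and THY1 without shSMARCA4 replicate 1, THY1 and ZIC1 without shSMARCA4 replicate 2, and MIXL1 without either library of shE2F6 or shMAFK. MIXL1, EOMES and ZIC1 were also lower, and KRT7 and COL1A1 higher, in shMAFK than in shSMARCA4 past the threshold. EOMES lost that call without any 1 library of either group, and MIXL1 without either shMAFK library or shSMARCA4 replicate 1. Their part in the shSMARCA4 values of the p53 response genes was not tested.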

How the data were processed

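RNA was measured in 10 libraries of H1 cells, 2 for each of 5 shRNA groups, with groups and replicate numbers from the sample titles. Libraries were made with the NEB Next Ultra kit and sequenced on a NovaSeq instrument, from RNA with an integrity number of at least 8.0, per the labels' protocols. STAR, STARsolo and the build hg38 are named in the submitters' processing notes, without versions or roles. The counting, its use of strand and the normalization are not given in the sources used here. The values deposited by the authors are treated as a score: whole-number normalized tag counts with nearly the same distribution in every library, so a difference in total RNA or depth cannot be seen and no counting interval is given. The deposited group means and errors were not used, and 0 columns of values were left unmapped. Every row of the deposited table reaches 80 in at least 2 libraries.

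Values were tested as log2(value + 1), which understates changes of low genes, with limma 3.58.1 (R 4.3.3). A two-sided moderated test with a trend of variance on mean was fitted once to the 10 libraries together. The fit had 5 residual and 4.11 prior degrees of freedom. Adjusted p-values are Benjamini-Hochberg over 14785 rows, with a threshold of 0.05, and the SE is limma's moderated SE. The comparisons were each knockdown against shLUC, shMAFK against shSMARCA4, and an F-test among the 4 knockdowns. Checks on simulated data preceded the fits. Positions come from GENCODE release 29 on GRCh38 and promoter sequences from RefSeq GRCh38.p14. Tables and plots used Python 3.11.15, pandas 2.3.3 and matplotlib 3.10.9.

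The genes, lists and tests were chosen with earlier results of these data known. Values per library are given for the 19 genes past the threshold, or with an unadjusted p under 0.05, in any comparison, and always for CDKN1A, MDM2, MDM4 and the targets. The other genes are given by range. From other lists, genes past the threshold are named, except for results that are not reported here. Some genes that passed only under an alternative are also named, chosen after their values were seen. Alternatives covered the pseudocount, a filter on low values, genes only, scaling, the variance model, the libraries fitted, the replicate number as a block and leaving out each library.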

Additional observations from a re-analysis of the deposited data

Results flagged for a closer look

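Several p53 response genes differed between knockdowns when the difference itself was tested with limma, over all rows. Between shMAFK and shSMARCA4, with 2 libraries each, the adjusted p was 0.000606 for TRIM22, 0.00241 for BBC3, 0.0119 for CDKN1A, 0.0149 for FAS, 0.0168 for GDF15, 0.0279 for PHLDA3 and 0.0322 for TIGAR, and all 7 were higher in both shMAFK libraries. Of all rows, 4.27% passed as higher in that comparison, and 27.7% had both shMAFK libraries above both shSMARCA4 libraries. Calls other than those of TRIM22 and BBC3 depended on single libraries, as given above. Every row of the table reaches 80 in at least 2 libraries and GDF15 does so only in shMAFK, so its presence in the table depended on those values. In the F-test for any difference among the 4 knockdowns, the adjusted p was 0.00183 for TRIM22, 0.0097 for BBC3, 0.0339 for CDKN1A and 0.0494 for TIGAR. Of all rows, 6.64% passed that F-test.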

How the results depend on the processing

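Counts of p53 response genes past the threshold changed as follows. Shares of all rows that passed are in brackets, except where 1 library was left out. In those fits the number of all rows that passed rose and fell as well, as given in the next paragraph. Their highest counts of p53 response genes came where more of all rows passed than in the main fit. With a separate variance for each group, 7 passed the F-test (10.4%), 2 passed in shMAFK (3.29%) and 4 in shSMARCA4 (8.83%) against shLUC. With only the groups compared, 2 passed the F-test (3.51%) and 4 in shSMARCA4 (6.2%). Without both shKDM1A libraries, 8 passed the F-test (14.3%) and 4 in shSMARCA4 (7.86%). Leaving out 1 library at a time, with the lone library of its group assumed to vary like the other groups, gave 1 to 15 in the F-test, 0 to 6 in shKDM1A, 2 to 8 between shMAFK and shSMARCA4, and 1 to 4 in shSMARCA4. The median change in shMAFK ran from 0.073 to 0.44 and that between shMAFK and shSMARCA4 from 0.38 to 0.72. The cause of the shifts in this section was not tested.

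Over all rows, with a separate variance for each group, calls were 1535 in the F-test (982 as reported), 21 in shE2F6 (0), 2 in shKDM1A (4), 487 in shMAFK (2), 2072 between shMAFK and shSMARCA4 (1148) and 1306 in shSMARCA4 (618). With only the groups compared they were 519 in the F-test, 1 in shE2F6, 0 in shKDM1A and 20 in shMAFK. Without both shKDM1A libraries they were 2117, 5 in shE2F6, 34 in shMAFK, 2147 between shMAFK and shSMARCA4 and 1162 in shSMARCA4. Without the variance trend they were 9 in shKDM1A and 5 in shMAFK, and full quantile normalization gave 5 in shMAFK. Leaving out 1 library gave 278 to 5302 in the F-test, 0 to 5 in shE2F6, 1 to 3235 in shKDM1A, 0 to 37 in shMAFK, 291 to 2135 between shMAFK and shSMARCA4 and 89 to 1159 in shSMARCA4. The change of PHLDA3 in shKDM1A turned to 0.75 without shKDM1A replicate 2 and was -0.98 without replicate 1. Of the values of single genes under all settings, 6395 kept their call, 110 passed newly and 140 no longer passed. A change of direction was counted only where a fit passed, which held for 1 value. Values that passed in neither fit could change direction and are among the 6395.

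Replicate numbers were not taken to pair the libraries, since deviations of same-numbered libraries correlated from -0.0503 to 0.337, above 0.1 in 2 of 10 pairs of groups. Over the 31 genes they correlated from -0.2 to 0.547 (shMAFK with shSMARCA4), above 0.1 in 4 of 10. With the replicate block, 8 p53 response genes in place of 7 passed between shMAFK and shSMARCA4 (RRM2B was added, adjusted p = 0.0387), as did MKI67 and MYBL2. Of all rows, 8.56% passed in that comparison with the block, in place of 7.76%. In shSMARCA4 against shLUC the block added IGFBP3 (0.0296) and removed DRAM1 (0.0559), and it left 1 row in place of 2 in shMAFK against shLUC. With 2 libraries a group and unknown depth, a gene that did not pass is not shown to be unchanged.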
